A study of Rattus norvegicus with 12 samples.

Results

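Matrix proteoglycans are secreted core proteins in the space around cells, many of which carry glycosaminoglycan chains. The genes described here are 10 of them, taken by symbol from the 33294 genes of the deposited count table: Acan, Vcan, Hspg2, Bgn, Dcn, Aspn, Lum, Fmod, Prelp and Ogn. All 10 passed the filter on low counts that left 18438 genes for testing. RNA was measured in PAC1 cells, a line of smooth muscle cells from rat pulmonary artery, in 12 poly(A)-selected libraries that fall into 4 groups of 3. The study describes these knockdowns as made in PAC1 cells cultured in a differentiated state. It found the control cells less differentiated than those of another of its experiments. The control group received the negative control siRNA C2, and the other groups received an siRNA against RBPMS, RBFOX2 or QKI. These are RNA-binding proteins that regulate splicing, and the comparisons ask how gene expression in the same smooth muscle line responds to the loss of each. Per the labels, cells received 90 pmol of siRNA and a further transfection 24 h afterwards, and were collected 48 h after that, while the study's methods describe longer intervals for this experiment and the difference was not resolved. PAC1 is 1 established line in culture, so no other cell of the vessel wall was present by design. The titles number the libraries of a group 1 to 3, and the study describes them as biological replicates, but no label ties a library to its own culture, so p-values measure the spread between these libraries.

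Proteoglycans fill and organise the matrix of the arterial wall. Aggrecan (Acan) and versican (Vcan) belong to the hyalectans, large chondroitin sulphate proteoglycans that bind hyaluronan and hold water, and perlecan (Hspg2) is a heparan sulphate proteoglycan of basement membranes. The other members are small leucine-rich proteoglycans, which bind collagen fibrils and several growth factors and fall into classes by sequence: biglycan, decorin and asporin in class I, lumican, fibromodulin and the PRELP protein in class II, and osteoglycin in class III. Smooth muscle cells of arteries make versican, biglycan, decorin and perlecan, and the mix of proteoglycans they make differs between contractile and synthetic states.

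The libraries held 111 to 152 M counts, and the least abundant member, Dcn, still had 44 counts in its lowest library. In each knockdown the targeted gene fell, from a mean of 40.7 to 7.21 CPM (counts scaled by the TMM-adjusted library total) for Rbpms, from 154 to 37.3 CPM for Rbfox2 and from 233 to 26.6 CPM for Qk, the symbol under which QKI is listed, and the knockdown and control libraries did not overlap. Rbpms also fell to 23.1 CPM in RBFOX2 knockdown and 29.0 CPM in QKI knockdown, and Qk to 174 CPM in RBFOX2 knockdown, so the depletions overlap in part. The summed level of 10 smooth muscle marker genes was 2168 to 2236 CPM in control, 1106 to 1215 CPM in RBPMS knockdown, 867 to 966 CPM in RBFOX2 knockdown and 1467 to 1557 CPM in QKI knockdown, and none of the 10 was at the floor of 3 counts in every library of a group. Acta2, Tagln and Myl9 made up most of that sum, with control means of 989.8, 687 and 303 CPM, and other markers had higher means in a knockdown, such as Myh11 (6.48 in control, 13.4 CPM after loss of RBFOX2), Myocd (22.1 in control, 38.1 CPM after loss of QKI) and Des (9.90 in control, 19.5 CPM after loss of QKI). Summed endothelial markers reached at most 9.33 CPM in any library and summed macrophage markers 5.93 CPM, and 5 epithelial markers summed to between 29.5 and 73.9 CPM. Krt8 supplied nearly all the epithelial sum, averaging 30.6 CPM in control, 39.9 CPM without RBPMS, 72.6 CPM without RBFOX2 and 32.3 CPM without QKI. The highest group means of the others were 0.391 CPM for Cdh1, 0.368 CPM for Epcam, 0.0311 CPM for Krt18 and 0.0049 CPM for Krt19. Library 2 of RBPMS knockdown stood apart from the other libraries of its group, with a chi-square per degree of freedom over genes of 45.6 and 57.8 against them, where the other 10 pairs within groups gave 4.64 to 21.5. Control library 3 was the highest of the control libraries for 9 of the 10 members (all but Acan), while 36.7% of all tested genes were highest there. Library 2 of RBPMS knockdown was the lowest of its group for 7 of the 10, against 37.6% of all tested genes.

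The RNA of all 10 matrix proteoglycans fell in QKI knockdown, 7 fell and Vcan rose in RBPMS knockdown, and Acan, Bgn, Aspn and Lum fell in RBFOX2 knockdown. In QKI knockdown 9 of the 10 fell to less than 50% of control, from Aspn with a log2 fold change of −2.87 to Hspg2 with −1.04, and Vcan fell by 0.50 on the log2 scale. In RBPMS knockdown Dcn, Aspn, Lum and Fmod fell to less than 50% of control, and in RBFOX2 knockdown only Aspn did. A gene was taken to pass at an adjusted p under 0.05 in edgeR's quasi-likelihood test, with adjustment over all 18438 genes, and to have changed when its absolute log2 fold change was also above 1. By that rule 9 of the 10 members changed downward in QKI knockdown, where 9.24% of all tested genes did, 4 of the 10 in RBPMS knockdown, where 4.5% did, and 1 of the 10 in RBFOX2 knockdown, where 4.73% did. At the adjusted p alone, 10 members were lower in QKI knockdown (34% of all tested genes), 7 in RBPMS knockdown (29%) and 4 after loss of RBFOX2 (30.1%), while 1 was higher in RBPMS knockdown (30.4%), with none higher in RBFOX2 knockdown (30.1%) or QKI knockdown (32.9%). All libraries lay below all control libraries for 10 members in QKI knockdown (36.3% of all tested genes), 7 in RBPMS knockdown (30.5%) and 3 in RBFOX2 knockdown (33.8%). In RBFOX2 knockdown the shares passing lower and lying below control were near those over all genes. The median log2 fold change over the 10 members was −1.40 in QKI knockdown, −0.82 in RBPMS knockdown and −0.14 in RBFOX2 knockdown, against 0.0070, 0.0085 and 0.015 over all tested genes. Only Aspn changed downward in all 3 knockdowns (0.846% of all tested genes did), and Acan, Bgn, Aspn and Lum were lower at the adjusted p in all 3 (12.5%). The 3 comparisons share the same control libraries and are not independent of each other.

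**Figure D1:**
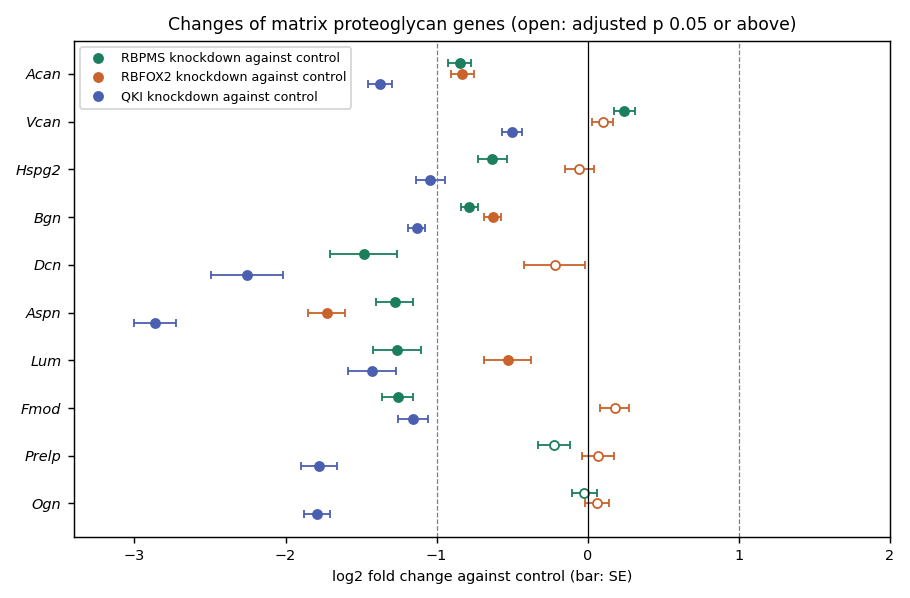
Log2 fold change against control (horizontal axis) of the 10 matrix proteoglycan genes (rows) in RBPMS, RBFOX2 and QKI knockdown, with bars of 1 SE from the edgeR fit, filled points passing at an adjusted p under 0.05 and open points not passing. All 10 points of QKI knockdown lie below 0 and are filled, while 6 of the 10 points of RBFOX2 knockdown are open.

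The members together took a smaller share of the libraries after each knockdown. They held 0.694% to 0.743% of all counts in the control libraries, 0.514% to 0.531% in RBFOX2 knockdown, 0.373% to 0.465% in RBPMS knockdown and 0.329% to 0.352% in QKI knockdown, and control did not overlap any knockdown group. Acan, Bgn, Hspg2 and Vcan made up 98.1% to 98.8% of the members' counts in every library, so this share describes those 4 genes and says little of the other 6. No transcript lengths were used here, so the levels of different genes are not ranked against each other. In RNA from whole cultures, fewer cells that express a gene and less RNA per cell cannot be told apart.

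**Figure D2:**
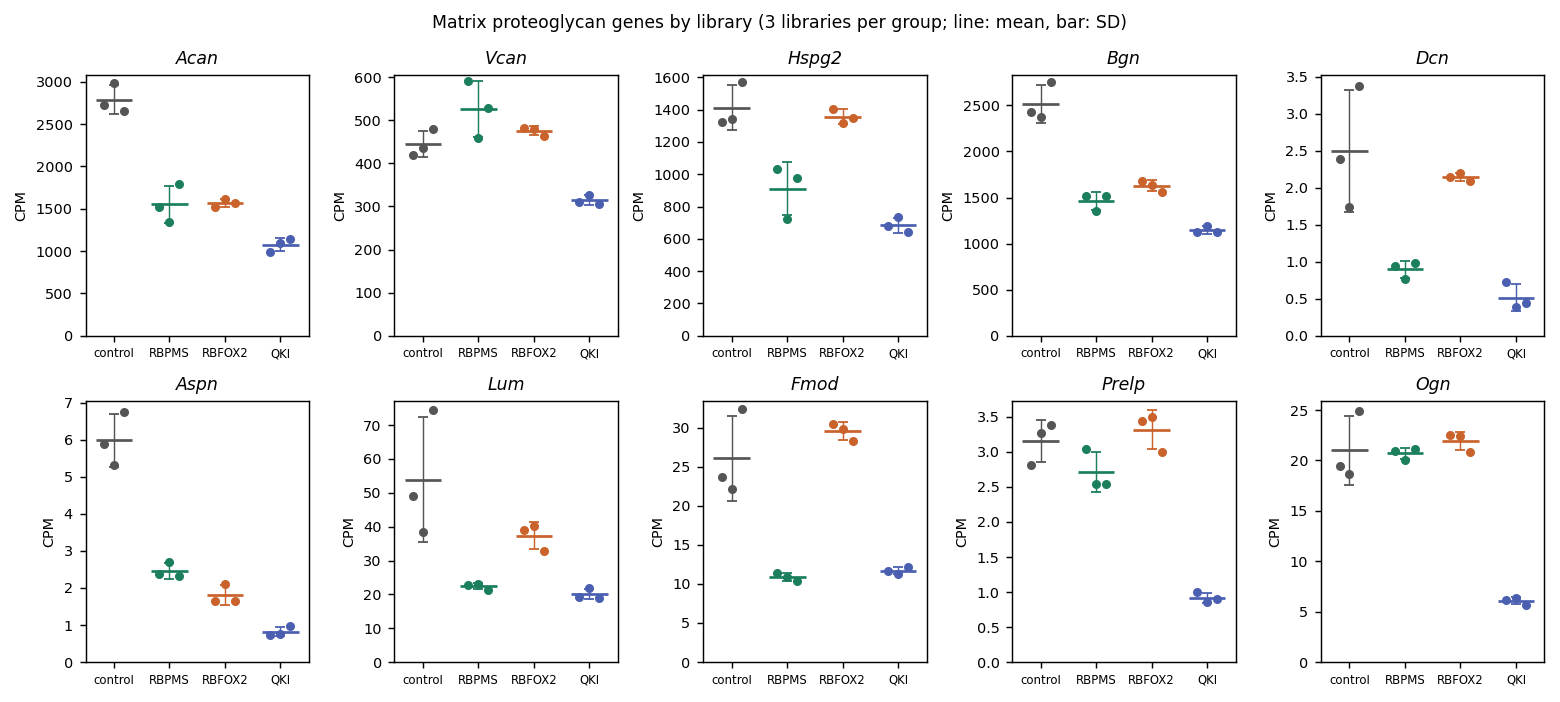
CPM of each member in every library of the 4 groups, with a line at the mean of the 3 libraries of a group. The mean of QKI knockdown is the lowest for 9 of the 10 genes, all but Fmod, and the control libraries are spread most widely for Lum and Dcn, whose highest point is library 3.

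The hyalectan Acan fell in all 3 knockdowns, whereas Vcan fell in QKI knockdown and rose in RBPMS knockdown. Acan encodes aggrecan, the main proteoglycan of cartilage, which is also made in large arteries. The CPM of Acan were 2728, 2985 and 2652 in control libraries 1 to 3, 1523, 1342 and 1787 with RBPMS siRNA, 1526, 1615 and 1569 with RBFOX2 siRNA and 991, 1093 and 1141 with QKI siRNA. Every knockdown library was below every control library, and the QKI knockdown libraries were below those of the other knockdowns. Acan had a mean of 2788 ± 175 CPM in control (± SD, n = 3) and fell with log2 fold changes of −0.85 (SE 0.077 and adjusted p 4.64e-08) for RBPMS knockdown, −0.83 (SE 0.077 and adjusted p 5.62e-08) for RBFOX2 knockdown and −1.38 (SE 0.078 and adjusted p 5.06e-11) in QKI knockdown. RBPMS and RBFOX2 knockdown gave neighbouring levels of Acan, with a difference of 0.02 on the log2 scale (adjusted p = 0.856) and an interval of 2 SE from −0.13 to 0.17. The authors' normalised table gave 0.20 for this difference, outside that interval, and leaving out a library gave −0.076 to 0.13 (adjusted p from 0.0668 to 0.969 over all alternatives). QKI knockdown was below both, with log2 differences of −0.53 from RBPMS knockdown and −0.55 from RBFOX2 knockdown (adjusted p = 1.20e-05 and 6.29e-06).

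Vcan encodes versican, a proteoglycan of the loose matrix around smooth muscle cells. The CPM of Vcan were 419, 435 and 479 in control libraries 1 to 3, 589.9, 459 and 529 with RBPMS siRNA, 483, 480.5 and 464 with RBFOX2 siRNA and 311, 327 and 304 with QKI siRNA. The QKI knockdown libraries lay below all others, and those of RBPMS knockdown overlapped control. Vcan fell in QKI knockdown with a log2 fold change of −0.50 (SE 0.067 and adjusted p 3.82e-06) and rose in RBPMS knockdown with 0.24 (SE 0.067 and adjusted p 0.00458), the only member that passed higher in a comparison with control. In RBFOX2 knockdown the log2 fold change was 0.10 (SE 0.067 and adjusted p 0.216), but it passed as a rise with the 6 libraries of the comparison only, at 0.10, and in the authors' normalised table, at 0.22 (adjusted p from 0.0220 to 0.552 over all alternatives). The means were 526 ± 65.3 CPM in RBPMS knockdown and 444 ± 30.9 CPM in control (± SD, n = 3). The rise was 0.33 on the log2 scale without library 2 of RBPMS knockdown and 0.15 without its library 1, and in the authors' quantile-normalised table it was 0.18 and missed the threshold in limma (adjusted p from 1.76e-06 to 0.05001 over all alternatives). Acan and Vcan therefore had log2 fold changes of opposite sign in RBPMS knockdown (−0.85 and 0.24). Counts were summed over all isoforms of a gene, so splice forms of versican were not distinguished.

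To show the sequences around the starts of this pair, which responded differently to RBPMS knockdown, the promoter windows of both genes follow as RefSeq lists them for the rat assembly GRCr8, each with 250 bases before and 50 after the annotated start. Capitals mark matches to the TATA box letters TATAAA, to CCAAT, to the GC box GGGCGG, to the AP-1 motif TGANTCA and to the CArG box, the binding element of serum response factor in smooth muscle promoters, searched on both strands. The window of Acan (chr1:142390701-142391000, plus strand) holds 3 matches to GGGCGG, with an overlapping pair, and that of the first of 2 Vcan entries (chr2:22595906-22596205, minus strand) holds 1 match to GGGCGG and 1 to CCAAT.
Acan: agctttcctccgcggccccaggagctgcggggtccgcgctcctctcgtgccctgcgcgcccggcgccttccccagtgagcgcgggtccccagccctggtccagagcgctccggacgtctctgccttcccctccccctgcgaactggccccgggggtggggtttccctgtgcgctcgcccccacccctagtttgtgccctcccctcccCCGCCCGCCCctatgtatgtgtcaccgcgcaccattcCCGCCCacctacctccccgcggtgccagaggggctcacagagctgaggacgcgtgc
Vcan: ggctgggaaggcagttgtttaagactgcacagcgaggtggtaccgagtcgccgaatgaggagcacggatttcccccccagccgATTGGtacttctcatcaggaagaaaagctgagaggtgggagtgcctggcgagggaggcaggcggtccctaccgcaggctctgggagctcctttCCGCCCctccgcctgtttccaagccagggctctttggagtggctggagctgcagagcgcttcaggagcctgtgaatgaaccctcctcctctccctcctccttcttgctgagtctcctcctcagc
Over 33469 promoter windows of the same length, GGGCGG occurred in 33.1%, CCAAT in 37.5%, TATAAA in 14.2%, the AP-1 motif in 7.33% and the CArG box in 1.64%. The windows are GC-rich, at 73.0% for Acan and 61.0% for Vcan, against a median of 51.7% over all windows. A match describes the letters of a window and is not a measured site. Entries were found for 7 of the 10 members, and Dcn, Bgn and Prelp had none.

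Hspg2 encodes perlecan, which anchors basement membranes and binds growth factors through its heparan sulphate chains. The CPM of Hspg2 were 1321, 1339 and 1571 in control libraries 1 to 3, 1033, 724 and 976 with RBPMS siRNA, 1405, 1317 and 1348 with RBFOX2 siRNA and 679, 733 and 643 with QKI siRNA. All RBPMS and QKI knockdown libraries were below all control libraries, whereas those of RBFOX2 knockdown overlapped control. Hspg2 fell with log2 fold changes of −1.04 (SE 0.097 and adjusted p 3.89e-08) in QKI knockdown and −0.63 (SE 0.096 and adjusted p 2.20e-05) in RBPMS knockdown, while in RBFOX2 knockdown the log2 fold change was −0.06 (SE 0.096 and adjusted p 0.637) with an interval of 2 SE from −0.25 to 0.14. Library 2 of RBPMS knockdown had 0.721 times the mean of the other libraries of its group, and without it the log2 fold change was −0.49. In QKI knockdown the log2 fold change was −0.96 without control library 3 and also −0.96 with library totals only. It was −0.9997 without library 3 of QKI knockdown and −0.92 in the normalised table, and all of these fell short of the fold threshold. The levels in RBFOX2 knockdown were above those in RBPMS knockdown by 0.57 on the log2 scale (adjusted p = 6.83e-05), and QKI knockdown was below RBPMS knockdown with a log2 difference of −0.41 (adjusted p = 0.00129), with libraries that overlapped. In the normalised table the latter was −0.21 and did not pass (adjusted p from 6.91e-14 to 0.106 over all alternatives).

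Among the class I genes, Bgn and Aspn were lower after every knockdown and Dcn after those of RBPMS and QKI. Biglycan, encoded by Bgn, carries chondroitin or dermatan sulphate chains and binds collagen and growth factors of the TGF-β family. The CPM of Bgn were 2427, 2374 and 2753 in control libraries 1 to 3, 1514, 1353 and 1522 with RBPMS siRNA, 1685, 1641 and 1561 with RBFOX2 siRNA and 1125, 1195 and 1127 with QKI siRNA. The 4 groups did not overlap one another, in the order control, RBFOX2 knockdown, RBPMS knockdown and QKI knockdown. Bgn fell with log2 fold changes of −0.63 (SE 0.055 and adjusted p 2.51e-08), −0.78 (SE 0.055 and adjusted p 1.74e-09) and −1.13 (SE 0.055 and adjusted p 6.72e-12) in that order of knockdowns. The step between RBFOX2 and RBPMS knockdown was small, 0.16 on the log2 scale (adjusted p = 0.0226), and it lost its call without library 2 of RBPMS knockdown or without library 1 or 2 of RBFOX2 knockdown, whereas the normalised table gave 0.37 (adjusted p from 1.98e-04 to 0.106 over all alternatives). The normalised table also gave smaller falls of Bgn against control, −0.35 in RBFOX2 knockdown and −0.91 in QKI knockdown, the latter below the fold threshold.

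Asporin, encoded by Aspn, resembles biglycan and decorin in its core protein but lacks their usual chain attachment site. The CPM of Aspn were 5.88, 5.33 and 6.75 in control libraries 1 to 3, 2.38, 2.71 and 2.31 with RBPMS siRNA, 1.64, 2.12 and 1.65 with RBFOX2 siRNA and 0.736, 0.757 and 0.968 with QKI siRNA. The groups again did not overlap, here in the order control, RBPMS knockdown, RBFOX2 knockdown and QKI knockdown. Aspn fell with log2 fold changes of −1.28 (SE 0.12 and adjusted p 9.48e-08), −1.73 (SE 0.12 and adjusted p 2.18e-09) and −2.87 (SE 0.14 and adjusted p 5.94e-12), the largest fall of any member in RBFOX2 and in QKI knockdown. Each step of that order passed the test (adjusted p = 9.48e-08, 0.00718 and 2.37e-06), so RBFOX2 knockdown was below RBPMS knockdown for this gene, while for Bgn it was above.

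Decorin, encoded by Dcn, limits the thickness of collagen fibrils and is typical of fibroblasts. The CPM of Dcn were 2.38, 1.74 and 3.38 in control libraries 1 to 3, 0.940, 0.769 and 0.983 with RBPMS siRNA, 2.15, 2.21 and 2.09 with RBFOX2 siRNA and 0.722, 0.383 and 0.444 with QKI siRNA. These were low levels that rested on counts of 292, 259 and 460 in control, 100, 104 and 108 with RBPMS siRNA, 297, 310 and 284 with RBFOX2 siRNA and 100, 44 and 55 with QKI siRNA. All libraries of RBPMS and QKI knockdown were below control, and those of RBFOX2 knockdown lay within the range of control. Dcn fell with log2 fold changes of −1.48 (SE 0.22 and adjusted p 1.86e-05) in RBPMS knockdown and −2.25 (SE 0.24 and adjusted p 1.78e-07) in QKI knockdown. In RBFOX2 knockdown the log2 fold change was −0.22 (SE 0.20 and adjusted p 0.372) and its interval of 2 SE from −0.62 to 0.19 includes 0. Control library 3 had 1.64 times the mean of the other control libraries, and without it the log2 fold changes were −1.20 in RBPMS knockdown, 0.06 in RBFOX2 knockdown and −1.98 in QKI knockdown. Summed levels of 5 fibroblast markers were 92.99 to 139.7 CPM in control, 94.8 to 120.4 CPM in RBPMS knockdown, 116.5 to 139.4 CPM in RBFOX2 knockdown and 63.9 to 77.1 CPM in QKI knockdown, with Dpt at the floor in control. Most of that sum was Col14a1, which had a mean of 99.7 CPM in control against 63.4 CPM after loss of QKI, while Scara5 was at 4.55 CPM in control, 12.7 CPM in RBFOX2 knockdown and 1.17 CPM in QKI knockdown. The part of these markers in the results was not tested.

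The class II genes Lum and Fmod fell together in RBPMS and QKI knockdown, and Prelp in QKI knockdown. Lumican, encoded by Lum, is a keratan sulphate proteoglycan that spaces collagen fibrils. The CPM of Lum were 49.0, 38.4 and 74.4 in control libraries 1 to 3, 22.9, 23.0 and 21.4 with RBPMS siRNA, 39.1, 40.2 and 32.7 with RBFOX2 siRNA and 19.3, 21.9 and 19.01 with QKI siRNA. RBPMS and QKI knockdown libraries were all below control, and 2 of the 3 libraries of RBFOX2 knockdown lay between the lowest and the middle control library. Lum fell with log2 fold changes of −1.26 (SE 0.16 and adjusted p 2.61e-06) in RBPMS knockdown, −0.53 (SE 0.15 and adjusted p 0.00714) in RBFOX2 knockdown and −1.43 (SE 0.16 and adjusted p 4.43e-07) in QKI knockdown. Control library 3 had 1.70 times the mean of the other control libraries, and without it the log2 fold changes were −0.96 for RBPMS knockdown, below the fold threshold, −0.23 in RBFOX2 knockdown, where the call was lost (adjusted p from 1.57e-11 to 0.0523 over all alternatives), and −1.12 in QKI knockdown. The level in QKI knockdown differed from that in RBPMS knockdown by −0.16 on the log2 scale (adjusted p = 0.408, interval of 2 SE from −0.49 to 0.16).

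Fibromodulin, encoded by Fmod, binds the same region of collagen as lumican. The CPM of Fmod were 23.7, 22.2 and 32.3 in control libraries 1 to 3, 11.5, 10.9 and 10.3 with RBPMS siRNA, 30.5, 29.8 and 28.3 with RBFOX2 siRNA and 11.7, 11.2 and 12.2 with QKI siRNA. The libraries split into a low pair of groups, RBPMS and QKI knockdown, and a high pair, control and RBFOX2 knockdown, with no overlap between the pairs. Fmod fell with log2 fold changes of −1.26 (SE 0.10 and adjusted p 1.06e-08) in RBPMS knockdown and −1.16 (SE 0.10 and adjusted p 1.69e-08) in QKI knockdown, and had 0.18 (SE 0.096 and adjusted p 0.118) in RBFOX2 knockdown. The difference between RBFOX2 and RBPMS knockdown, 1.44 (SE 0.10 and adjusted p 3.27e-09) on the log2 scale, was the largest of any member in that direct comparison. QKI and RBPMS knockdown differed by 0.10 (adjusted p = 0.418, interval of 2 SE from −0.11 to 0.31). Without control library 3, which was 1.41 times the mean of the others, the log2 fold change in RBFOX2 knockdown was 0.36 and passed, as it also did at 0.24 in the normalised table, 0.23 with library totals only and 0.17 without the filter (adjusted p from 4.29e-05 to 0.524 over all alternatives). Without that library the fall in QKI knockdown was 0.97, below the fold threshold.

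Prelp encodes a leucine-rich repeat protein that binds collagen and the basement membrane proteoglycan perlecan. The CPM of Prelp were 2.81, 3.28 and 3.38 in control libraries 1 to 3, 3.04, 2.54 and 2.55 with RBPMS siRNA, 3.45, 3.50 and 3.00 with RBFOX2 siRNA and 0.996, 0.853 and 0.903 with QKI siRNA. Libraries of control overlapped those of RBPMS and of RBFOX2 knockdown, and those of QKI knockdown were all below 1 CPM. Prelp fell in QKI knockdown with a log2 fold change of −1.78 (SE 0.12 and adjusted p 5.49e-10). In RBPMS and RBFOX2 knockdown the log2 fold changes were −0.22 (SE 0.11 and adjusted p 0.0858) and 0.07 (SE 0.11 and adjusted p 0.590). The former passed at −0.27 with library totals only, at −0.30 without control library 1 and at −0.31 without library 1 of RBPMS knockdown (adjusted p from 0.0297 to 0.431 over all alternatives).

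Osteoglycin, or mimecan, encoded by Ogn, is the class III member and is found in bone and vessel walls. The CPM of Ogn were 19.4, 18.7 and 24.9 in control libraries 1 to 3, 20.9, 20.1 and 21.1 with RBPMS siRNA, 22.5, 22.4 and 20.9 with RBFOX2 siRNA and 6.16, 6.35 and 5.69 with QKI siRNA. Control, RBPMS knockdown and RBFOX2 knockdown overlapped, and every library of QKI knockdown was below 7 CPM. Ogn fell in QKI knockdown with a log2 fold change of −1.79 (SE 0.089 and adjusted p 8.38e-12). In RBPMS knockdown the log2 fold change was −0.02 (SE 0.082 and adjusted p 0.842) with an interval of 2 SE from −0.19 to 0.14, and in RBFOX2 knockdown it was 0.06 (SE 0.081 and adjusted p 0.529) with an interval from −0.10 to 0.23. Without control library 3 these were 0.12 (adjusted p from 0.0879 to 0.999 over all alternatives) and 0.20, the latter passing (adjusted p from 0.00572 to 0.950 over all alternatives). Ogn and Prelp are thus the members that passed in QKI knockdown and, with all 12 libraries and TMM scaling, in no other. In the direct comparisons QKI knockdown was below RBPMS knockdown with log2 differences of −1.77 for Ogn and −1.55 for Prelp (adjusted p = 1.80e-11 and 6.40e-09), and below RBFOX2 knockdown with −1.85 and −1.85 (adjusted p = 5.70e-12 and 3.29e-10).

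Ogn and Aspn lie close together on chromosome 17, and their windows are shown because Aspn fell in all 3 knockdowns and Ogn, with all libraries, in that of QKI alone. The window of Ogn (chr17:15258946-15259245, minus strand) holds 2 overlapping matches to TATAAA, 1 on each strand, in capitals, and that of Aspn (chr17:15310420-15310719, minus strand) holds no match to the motifs searched.
Ogn: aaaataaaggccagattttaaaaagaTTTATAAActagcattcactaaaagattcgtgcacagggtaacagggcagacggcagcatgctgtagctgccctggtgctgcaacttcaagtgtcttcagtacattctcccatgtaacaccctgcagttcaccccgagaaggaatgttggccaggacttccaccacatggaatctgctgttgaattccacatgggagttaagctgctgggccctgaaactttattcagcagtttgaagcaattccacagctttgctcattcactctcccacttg
Aspn: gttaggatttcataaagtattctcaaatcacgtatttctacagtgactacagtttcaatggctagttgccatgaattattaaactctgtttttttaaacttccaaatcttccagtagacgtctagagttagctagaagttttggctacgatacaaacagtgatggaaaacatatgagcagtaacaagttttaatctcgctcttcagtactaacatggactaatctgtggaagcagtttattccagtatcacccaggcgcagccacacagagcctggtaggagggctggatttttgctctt
Both matches in Ogn lie near the 5′ end of its window. Both genes overlap the span of Cenpp, a centromere protein gene, in the RefSeq table, and how the counting treated overlapping genes is not stated. The log2 fold changes of Cenpp were 0.09, 0.12 and 0.15 for the knockdowns in the order RBPMS, RBFOX2, QKI (adjusted p = 0.349, 0.184 and 0.0999).

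The knockdowns were also compared with each other directly. QKI knockdown gave lower levels than RBFOX2 knockdown for all 10 members at the adjusted p, where 35% of all tested genes were lower, and Dcn, Aspn, Fmod, Prelp and Ogn changed (10.6% of all tested genes). That count of 5 ran from 4 to 6 when a library was left out, as Aspn fell just short without library 2 of RBFOX2 knockdown (−0.996) and Hspg2 reached −1.03 without library 2 of QKI knockdown. Against RBPMS knockdown it gave lower levels for 8 members, where 32% of tested genes were lower, and Aspn, Prelp and Ogn changed (6.53%). Lum and Fmod were the 2 members that did not pass there, although Lum passed at −0.16 with the 6 libraries only and Fmod as a rise at 0.24 in the normalised table (adjusted p from 0.0467 to 0.875 over all alternatives and adjusted p from 0.0414 to 0.666 over all alternatives). The Dcn call was lost without library 2 or 3 of QKI knockdown or library 3 of RBPMS knockdown (adjusted p from 2.30e-04 to 0.0782 over all alternatives), and Dcn changed, at −1.10, without library 1 of QKI knockdown. The Bgn difference was −0.19 in the normalised table. RBFOX2 knockdown was higher than RBPMS knockdown for 6 members, where 27.9% of tested genes were higher, namely Hspg2, Bgn, Dcn, Lum, Fmod and Prelp, and Dcn and Fmod changed (4.41%). The count fell to as few as 4 when a library was left out, and the Prelp call was lost in the normalised table and without library 1 or 2 of RBFOX2 knockdown or library 2 or 3 of RBPMS knockdown (adjusted p from 0.00480 to 0.220 over all alternatives). RBFOX2 knockdown was lower for Aspn (28.8%), and Vcan also passed lower without the filter and without library 2 of RBPMS knockdown (adjusted p from 3.20e-04 to 0.759 over all alternatives). The median differences over the 10 members were −1.06, −0.64 and 0.22 on the log2 scale in these 3 comparisons.

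Several members have neighbours of the same families, and those next to them in the RefSeq gene order were examined after their values had been seen. Next to Dcn and Lum lie Kera and Epyc, the genes of keratocan and epiphycan. Epyc, a proteoglycan of growth plate cartilage, fell in QKI knockdown from a mean of 149 to 16.1 CPM, which is −3.21 (SE 0.098 and adjusted p 1.44e-14) on the log2 scale. It also fell in RBPMS knockdown with −0.51 (SE 0.088 and adjusted p 8.30e-05), and in RBFOX2 knockdown it had −0.02 (SE 0.087 and adjusted p 0.842). Dcn, Lum and Epyc thus all fell in RBPMS and QKI knockdown, and Kera, with 0 to 4 counts in a library, was not tested. Between Ogn and Aspn lies Omd (osteomodulin), whose log2 fold changes were −0.76, −0.20 and −0.86 after loss of RBPMS, RBFOX2 and QKI in turn, and beyond Aspn lies Ecm2, with −0.84, −0.03 and −1.40. Both had means below 1 CPM and passed in RBPMS and QKI knockdown (adjusted p = 0.0345 and 0.0156 for Omd, 0.00207 and 1.90e-05 for Ecm2). Neighbours in this cluster did not share 1 pattern, since Ogn passed in neither RBPMS nor RBFOX2 knockdown.

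The neighbours of the hyalectans are link protein genes, whose products fasten these proteoglycans to hyaluronan. Hapln3, beside Acan, rose after loss of RBPMS, RBFOX2 and QKI with log2 fold changes of 0.26, 0.47 and 0.68 (adjusted p = 0.00178, 4.32e-06 and 3.51e-08), where Acan fell in all 3 knockdowns. Hapln1, beside Vcan, rose in RBPMS and QKI knockdown with 0.77 (SE 0.19 and adjusted p 0.00219) and 0.87 (SE 0.19 and adjusted p 6.06e-04), and had 0.43 (SE 0.19 and adjusted p 0.0643) in RBFOX2 knockdown. Its level was low, at 50 to 112 counts in a library. Vcan and Hapln1 both passed higher in RBPMS knockdown, where the Vcan libraries overlapped control, and passed in opposite directions in QKI knockdown. Optc (opticin), beside Prelp and Fmod, had only 4 to 27 counts in a library and log2 fold changes of −1.90, −1.11 and −1.28, each passing (adjusted p = 0.00121, 0.0216 and 0.0104).

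**Figure D3:**
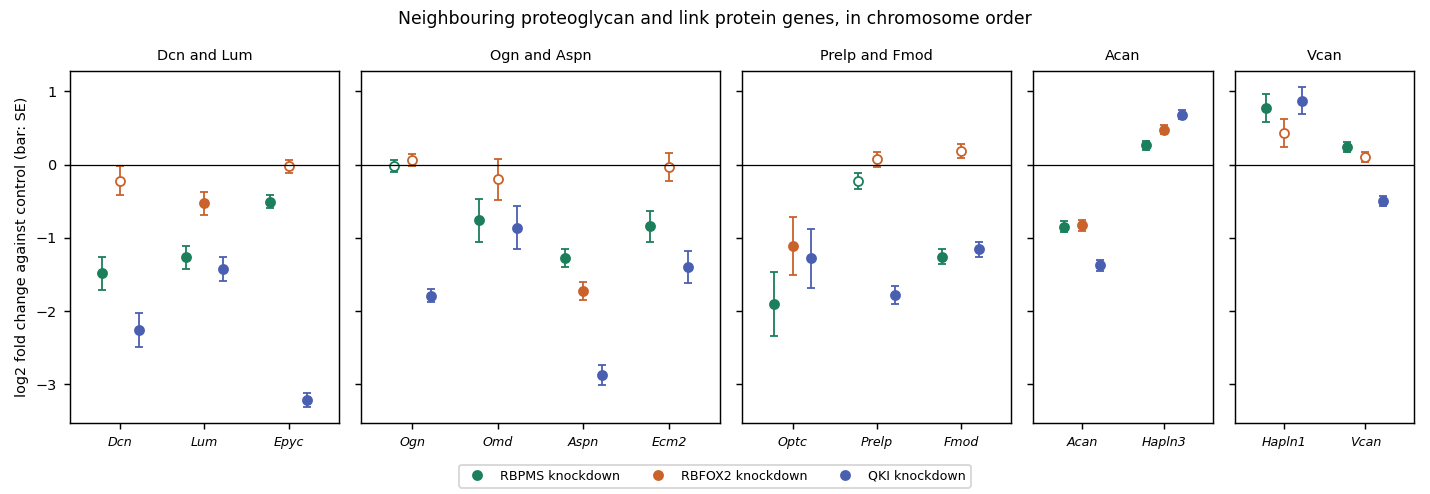
Log2 fold change against control (vertical axis, bars of 1 SE) of members and their neighbouring genes, in chromosome order within each panel, for RBPMS, RBFOX2 and QKI knockdown; filled points pass at an adjusted p under 0.05. Epyc has the lowest value drawn, −3.21 in QKI knockdown, and Hapln3 lies above 0 in all 3 knockdowns while Acan lies below.

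Aggrecan is best known from cartilage, and 6 chondrocyte markers were therefore set beside the members. Their summed level was 58.3 to 60.98 CPM in control, 62.8 to 70.03 CPM in RBPMS knockdown, 100.1 to 108.8 CPM in RBFOX2 knockdown and 22.9 to 25.8 CPM in QKI knockdown. Nearly all of it was Sox9, a transcription factor of chondrocytes, with means of 57.8, 63.7, 102.3 and 21.2 CPM in these groups. The lower sum in QKI knockdown therefore reflects Sox9. Comp had means of 0.840, 1.06, 1.10 and 1.20 CPM in the same order of groups, and Snorc 0.760, 1.49, 1.33 and 1.58 CPM. Both were higher in QKI knockdown than in control, unlike Sox9. Of the defining collagens, Col2a1 had 2 to 38 counts in a library and Col9a1 at most 6, and Matn1 also had at most 6. Sox9 and Acan were both lowest in QKI knockdown, but in RBFOX2 knockdown Sox9 was at its highest while Acan was below control, and the part of Sox9 in these results was not tested.

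Genes around the members were followed in lists of their families, enzymes and proteases. Each list can be read against all tested genes, of which 29% to 34% passed lower and 30.1% to 32.9% higher in a knockdown. A gene named below for a knockdown may also have passed in others. Of 20 other matrix proteoglycans and small leucine-rich repeat proteins 16 were tested, and in RBPMS knockdown 11 passed lower and 2 higher, in RBFOX2 knockdown 7 lower and 4 higher, and in QKI knockdown 11 lower and 1 higher. The list median was −0.66, −0.20 and −0.92 on the log2 scale, against 0.0085, 0.015 and 0.0070 over all genes. Esm1, which encodes the dermatan sulphate proteoglycan endocan, had the largest fall of the list, from 232 to 11.5 CPM after loss of QKI, −4.34 (SE 0.042 and adjusted p 2.75e-20) on the log2 scale. Serglycin (Srgn), a proteoglycan of secretory granules, fell from 50.5 CPM to 18.6 CPM without RBPMS and 13.6 CPM without RBFOX2, with log2 fold changes of −1.44 and −1.89 (adjusted p = 3.57e-13 and 7.82e-15). Podocan (Podn) fell in RBPMS knockdown with −1.80 (SE 0.11 and adjusted p 2.02e-10). Its means were 8.76 CPM in control and 2.52 CPM there, and it was also lower in RBFOX2 and QKI knockdown, at 5.09 and 3.93 CPM.

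Cell surface proteoglycans included both rises and falls. Of 16 listed genes 14 were tested, of which 5 passed lower and 3 higher in RBPMS knockdown, 6 and 5 after loss of RBFOX2, and 8 and 3 after loss of QKI, with list medians of −0.28, −0.13 and −0.43. Syndecan-1 (Sdc1), a heparan sulphate co-receptor, rose from 96.2 CPM in control to 309.6 CPM without RBPMS, 292 CPM without RBFOX2 and 241 CPM without QKI, with log2 fold changes of 1.69, 1.60 and 1.33 (adjusted p = 9.62e-16, 6.93e-16 and 3.40e-15). Cd44, the main hyaluronan receptor, rose from 230.1 CPM to 706, 628 and 616 CPM, with 1.62, 1.45 and 1.42 (adjusted p = 5.61e-14, 1.02e-13 and 6.12e-14). Sdc2 and Sdc3 went the other way. Sdc2 fell in RBFOX2 and QKI knockdown with −1.15 (SE 0.034 and adjusted p 2.31e-14) and −1.27 (SE 0.035 and adjusted p 3.40e-15), and in RBPMS knockdown with −0.59 (adjusted p 1.55e-10). Sdc3 fell in QKI knockdown with −1.35 (SE 0.046 and adjusted p 6.10e-14), and by less in RBPMS and RBFOX2 knockdown, with −0.71 and −0.29 (adjusted p = 6.03e-10 and 2.28e-05). Sdc4 had −0.03, 0.18 and −0.11 for the knockdowns in the order RBPMS, RBFOX2, QKI (adjusted p = 0.559, 7.21e-04 and 0.0174). The glypican gene Gpc6 and Nrp1, a co-receptor of VEGF, fell in RBPMS knockdown with log2 fold changes of −1.14 and −1.01 (adjusted p = 3.41e-10 and 6.29e-11). Nrp1 fell further in QKI knockdown, with −1.24 (adjusted p = 1.70e-12), and by −0.20 in RBFOX2 knockdown (adjusted p = 0.00386). Gpc6 also passed lower in RBFOX2 and QKI knockdown, with −0.69 and −0.27 (adjusted p = 1.34e-07 and 0.00225).

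Hyaluronan, the chain to which the hyalectans bind, is made and cleared by its own genes, and all 16 of that list were tested. In RBPMS knockdown 7 passed higher and 4 lower, in RBFOX2 knockdown 3 and 3, and in QKI knockdown 6 and 5, with list medians of 0.18, 0.07 and −0.11. The synthase Has1 rose in RBPMS knockdown from 1.11 to 2.40 CPM, with 1.11 (SE 0.15 and adjusted p 6.27e-06). In QKI knockdown Tnfaip6, which transfers heavy chains to hyaluronan, rose with 1.45 (SE 0.13 and adjusted p 1.58e-08) and Cemip2 fell with −1.87 (SE 0.057 and adjusted p 1.34e-14).

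Enzymes that build the chains were found on both sides. Of 7 linkage region enzymes, 5 passed lower and 1 higher in RBPMS and in QKI knockdown, and 2 in each direction in RBFOX2 knockdown, and the list medians were −0.32 for RBPMS, −0.01 for RBFOX2 and −0.27 for QKI knockdown. Xylt1, which starts the chain on the core protein, rose in RBPMS and RBFOX2 knockdown with log2 fold changes of 1.44 and 1.43 (adjusted p = 3.55e-10 and 2.69e-10). Of 15 tested chondroitin and dermatan sulphate enzymes 9 passed higher and 2 lower in RBPMS knockdown, 10 and 3 after loss of RBFOX2, and 6 and 5 after loss of QKI, with medians of 0.20, 0.43 and 0.10. Chst14, the sulphotransferase of dermatan sulphate, rose from 9.07 CPM in control to 43.8 CPM without RBPMS, 30.2 CPM without RBFOX2 and 42.7 CPM without QKI, with log2 fold changes of 2.27, 1.73 and 2.23 (adjusted p = 6.95e-16, 7.82e-15 and 1.75e-16). In QKI knockdown the chondroitin enzymes Chst3 and Csgalnact1 fell with −1.92 and −1.82 (adjusted p = 6.53e-13 and 9.88e-15), and in RBFOX2 knockdown Chst15 rose with 1.28 (SE 0.11 and adjusted p 2.81e-08).

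Of 18 tested heparan sulphate enzymes 11 passed lower and 4 higher in RBPMS knockdown, 5 and 8 after loss of RBFOX2, and 9 and 3 after loss of QKI, with medians of −0.17, 0.19 and −0.10. Hs6st2, a sulphotransferase of heparan sulphate, rose from 37.4 CPM to 177 CPM without RBPMS, 144 CPM without RBFOX2 and 127 CPM without QKI, with log2 fold changes of 2.24, 1.94 and 1.76 (adjusted p = 9.65e-16, 2.13e-15 and 3.40e-15). In QKI knockdown the sulphotransferase gene Ndst1 rose with 1.16 (SE 0.056 and adjusted p 5.93e-12) and Hpse, the gene of heparanase, fell with −1.09 (SE 0.084 and adjusted p 3.03e-09). All 7 keratan sulphate enzymes were tested, with 2 passing higher and 1 lower in RBPMS knockdown, 2 and 2 after loss of RBFOX2, and 3 and 2 after loss of QKI, and medians of 0.07, −0.02 and −0.08. In QKI knockdown B4galt4 fell with −1.16 (SE 0.086 and adjusted p 1.78e-09).

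Proteases that cut the core proteins, listed together with Timp3, an inhibitor of such proteases, moved in both directions. All 15 genes of this list, Timp3 included, were tested. Of these 6 passed higher and 5 lower in RBPMS knockdown, 5 and 3 after loss of RBFOX2, and 8 and 6 after loss of QKI. The list medians were −0.05, 0.02 and 0.16. Among the aggrecanases, Adamts4 rose in RBFOX2 knockdown from 3.24 to 12.6 CPM, with 1.96 (SE 0.087 and adjusted p 3.78e-12), Adamts5 rose in QKI knockdown with 1.23 (SE 0.089 and adjusted p 1.44e-09), Adamts15 fell in QKI knockdown with −2.01 (SE 0.10 and adjusted p 1.59e-11) and Adamts8 fell in RBFOX2 knockdown with −1.02 (SE 0.056 and adjusted p 6.31e-11). Tll1, a protease that trims the precursors of small leucine-rich proteoglycans, rose in QKI knockdown with 2.53 (SE 0.083 and adjusted p 3.62e-14) and fell in RBFOX2 knockdown with −1.14 (SE 0.097 and adjusted p 1.75e-08). The collagenase gene Mmp13 fell in QKI knockdown with −1.65 (SE 0.17 and adjusted p 1.30e-07), at means of 1.44 CPM in control and 0.463 CPM in the knockdown.

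**Figure D4:**
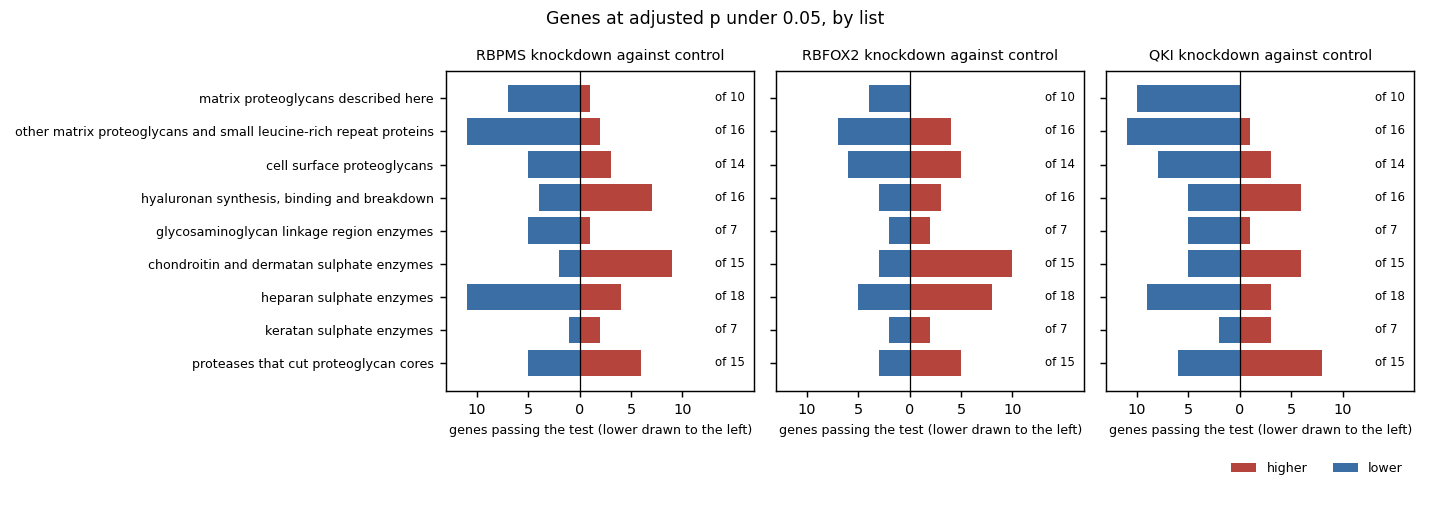
Numbers of genes (horizontal axis) that passed at an adjusted p under 0.05 in each list, higher drawn to the right and lower to the left of 0, for each knockdown against control, with the number tested at the right of each row. The 10 matrix proteoglycans have no bar to the right in QKI and RBFOX2 knockdown, and the chondroitin and dermatan sulphate enzymes have the longest bar to the right in RBPMS and RBFOX2 knockdown. The list of proteases includes the inhibitor gene Timp3.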

How the data were processed

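Libraries were grouped by their titles into 4 groups of 3. The authors deposited raw counts per gene, made per the study's methods with featureCounts after STAR alignment to the rat genome, and a table of normalised signal for 22320 genes, deposited after a noise filter and quantile normalisation, which served as an alternative. The study's methods also describe subsampling all samples to a uniform depth before alignment. The deposited totals of 111 to 152 M counts differed between libraries, and this was not resolved. Handling of strand, read pairs and multiply mapped reads is not given in the sources used here. Even numbers made up 68.1% of the counts from 1 to 19 and 50.9% of those above 1000, so a fit on counts divided by 2 was added as an alternative.

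Differential expression was tested on the counts in R 4.3.3 with edgeR 4.0.16 (filterByExpr, TMM scaling, 1 fit of all 12 libraries with a common dispersion of 0.00241, glmQLFit and glmQLFTest, two-sided), with Benjamini-Hochberg adjustment over 18438 genes for each of 6 comparisons. Passing meant an adjusted p under 0.05, and a gene changed when its absolute log2 fold change also exceeded 1. CPM use TMM-scaled totals, the SE is the absolute log2 fold change divided by the square root of F, and intervals span 2 SE. An exact permutation test of 3 against 3 cannot give a p below 0.1. Other alternatives were RLE size factors, library totals only, no filter on low counts, DESeq2 1.42.0, limma 3.58.1 on log2(normalised value + 1), the 6 libraries of a comparison only, a replicate block and leaving out each library. The edgeR steps were tested on simulated data. The floor was 3 counts in every library of a group.

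The members and lists were chosen with earlier results of these data known. From each list, the text names up to 2 rises and 2 falls per knockdown, those with the largest change whose mean over all libraries reached 1 CPM, provided that no library overlapped control. Promoter windows and gene order come from RefSeq tables of GRCr8, another assembly than the authors used for counting, and no coordinates were converted.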

Additional observations from a re-analysis of the deposited data

How the results depend on the processing

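Of the counts recomputed under the alternatives 411 stayed within 1.5 times and 9 did not, and of the log2 values of single members 804 kept their direction and side of the adjusted p threshold, 14 gained and 14 lost that call and 8 changed sign, and 11 of the 804 crossed the fold threshold. Members passing lower in QKI knockdown numbered 10 in every alternative, and those changed downward 7 to 9 in QKI knockdown and 3 to 4 in RBPMS knockdown when a library was left out, the lowest count in both without control 3. Passing rises in RBFOX2 knockdown (0) became 1 with the 6 libraries only, with library totals only and without the filter, 2 with the normalised table and 0 to 2 when a library was left out (2 without control 3). The single passing rise in RBPMS knockdown became 0 with the normalised table. Passing falls of RBFOX2 against RBPMS knockdown (1) became 2 without the filter and 1 to 2 when a library was left out, and passing rises of QKI against RBPMS knockdown (0) became 1 with the normalised table. The sign turned for Vcan between RBFOX2 and RBPMS knockdown, 0.033 with the normalised table, and when a library was left out for Ogn in RBPMS knockdown (−0.10 to 0.12), in RBFOX2 knockdown for Dcn (−0.43 to 0.061), Hspg2 (−0.10 to 0.026), Ogn (−0.018 to 0.20) and Prelp (−0.0068 to 0.13), and for Acan between RBFOX2 and RBPMS knockdown (−0.076 to 0.13). The cause was not tested. In QKI knockdown the normalised table gave −0.91 for Bgn, −0.99 for Fmod and −0.92 for Hspg2, below the fold threshold. Same-numbered libraries correlated above 0.1 in 1 of 18 pairs, and 4 of 12 libraries correlated best with their own number. No pairing by number was seen in these values, and whether same-numbered libraries share a culture day or batch was not tested. With the replicate block 4, 1 and 9 members changed downward in RBPMS, RBFOX2 and QKI knockdown, as without it, and over all genes 1752, 2110 and 3203 changed, against 1781, 2156 and 3231. The CV over control libraries was 33.03% for Dcn, at 259 to 460 counts, and 34.3% for Lum, at 5714 to 10129 counts. The spread was thus similar for both although Lum had many more counts, and what limited the precision was not tested.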
